A study of Mus musculus with 20 samples.

Results

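Ribosome and translation genes were followed in mouse kidney cortex after 3 forms of acute kidney injury. The set was chosen by gene symbol alone and holds 74 of the 6025 genes in the deposited table. It comprises the ribosomal proteins (Rpl, Rplp and Rps, without the Rps6k kinases), the initiation factors and their regulators (Eif), the elongation factors (Eef), the cytosolic tRNA synthetases (a single letter followed by ars), the nucleolar rRNA processing factors (Nop, Nol, Utp and Rrp) and RNA polymerase I (Polr1). By role, 19 members were named as large subunit proteins, 17 as small subunit proteins, 11 as initiation factors, 4 as regulators of initiation, 2 as elongation factors, 7 as tRNA synthetases, 13 as nucleolar factors and 1 as an RNA polymerase I subunit. RefSeq lists 219 protein-coding mouse symbols that fit the same rule, of which 72 were in the table, and the remaining 2 members are transcribed pseudogenes.

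All animals were wild-type (WT) C57BL/6 mice aged 8 weeks, and the tissue was renal cortex. The 4 groups were control (n = 8, labelled mock), ischemia-reperfusion injury (IRI) at 24 h (n = 4), rhabdomyolysis at 24 h (n = 4) and cisplatin at 72 h (n = 4). The series describes its libraries as biological replicates and its controls as mock and vehicle, and these kinds of control could not be told apart in the labels. IRI stops and restores renal blood flow, rhabdomyolysis floods the kidney with the contents of damaged muscle, and cisplatin is a platinum drug that damages DNA and injures tubule cells. Library identifiers fell into 2 ranges, so IRI was compared with controls 1 to 4 and the other injuries with controls 5 to 8. Because the cisplatin kidneys were taken at a later time than the others, injury and time cannot be told apart in any comparison with cisplatin.

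Ribosomes are assembled in the nucleolus, where RNA polymerase I transcribes the rRNA precursor and box C/D particles, processome subunits and other factors modify, cut and fold it around ribosomal proteins. In the cytoplasm, initiation factors load the small subunit on capped mRNA, elongation factors drive the ribosome along it, and tRNA synthetases charge tRNAs with amino acids. Tubule cells of the kidney are rich in transport proteins and mitochondria, and both stress kinases that act on eIF2 and the mTOR pathway that acts on eIF4E-binding proteins are known to adjust protein synthesis in injured cells.

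The libraries held 3.48 M to 5.40 M reads (M, mega) in the genes of the table. The values are reads scaled to a fixed library size (CPM) as deposited, and each gene listed lay 1.5-fold or more away from the mean of the 8 controls in some injury. The table is thus selected for change, and 1.62 was the smallest such fold of any member. Members past 1.5-fold numbered 49 in IRI, 51 in rhabdomyolysis and 63 in cisplatin. Counts and medians of members, also between injuries, are therefore not free of this selection. The deposited table covered 55.3% to 70.6% of the library size that the CPM steps imply in each control and 42.1% to 48.3% of it in each injured library. Controls 5 to 8 differed from controls 1 to 4 in 0 of 5672 genes by limma with Benjamini-Hochberg adjustment, in 0 by edgeR and in 5 by DESeq2, while 454 genes had an unadjusted limma p under 0.05, among them 13 members. Proximal tubule cells make up most of the cortex, and the summed CPM of their markers (10 of 10 in the table) was 10706 to 15634 in controls, 3912 to 4797 in IRI, 2051 to 2593 in rhabdomyolysis and 1659 to 3160 in cisplatin. In bulk tissue, fewer cells of a type and less RNA per cell cannot be told apart. Summed markers of dividing cells (5 of 8 in the table) were at 63.9 to 82.9 CPM in controls and at 113 to 164, 129.9 to 149.8 and 98.2 to 122 CPM in IRI, rhabdomyolysis and cisplatin. Fibroblast and pericyte markers (6 of 8) were at 98.5 to 223 CPM in controls and at 438 to 539.6, 444 to 1286 and 245 to 698 CPM in the same order. Neutrophil markers (5 of 8) were at 2.82 to 5.11 CPM in controls and at 13.6 to 28.2, 25.3 to 49.1 and 21.9 to 39.8 CPM. Macrophage markers (7 of 8) were at 194 to 305 CPM in controls and at 142 to 202, 173 to 357 and 257 to 362 CPM, while by limma 3 of the 7 were higher and 2 lower in IRI and 5 higher and 2 lower in each of the other injuries. Endothelial markers (4 of 8) were at 164 to 315 CPM in controls and at 292 to 330.0, 485 to 740.3 and 310.3 to 462 CPM. Podocyte markers (3 of 8) were at 177 to 484 CPM in controls and at 488 to 619.7, 661 to 952 and 523 to 645 CPM. The fibroblast, endothelial and podocyte sums thus had their highest median in rhabdomyolysis, as did the summed nucleolar factors and tRNA synthetases. Markers of the loop of Henle and distal nephron (6 of 10) were at 2607 to 4634 CPM in controls and at 440.2 to 858, 553 to 810.1 and 462 to 557 CPM. Erythroid markers (5 of 6) were at 653 to 2142 CPM in controls and at 644 to 964, 224 to 309.6 and 3.57 to 16.6 CPM, and lymphocyte markers (2 of 8) were under 4 CPM in every library. None of these markers was at 0 in every library of a group, and their part in the changes below was not tested.

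Most of the 74 members in this selected table were higher in each injury. In IRI, 55 of 74 members were higher and 4 lower than in controls 1 to 4 (limma, adjusted p under 0.05), where 40.6% of all 5672 tested genes were higher and 40.1% lower (80.7% in all). In rhabdomyolysis 64 members were higher and 6 lower, against 48.8% and 46.5% of all genes (95.3% in all). In cisplatin 65 were higher and 5 lower, against 47.8% and 44% of all genes (91.8% in all). The members' median log2 fold change was 0.52, 0.87 and 0.84 for IRI, rhabdomyolysis and cisplatin, whereas the median of all tested genes was 0.08, 0.31 and 0.30. All fold changes are on the log2(CPM + 1) scale, which understates the change of genes with few reads. Every library of the injury lay above all 8 controls for 50 members after IRI, 57 after rhabdomyolysis and 52 after cisplatin, where 31%, 42.3% and 40.7% of all genes did so. The members' changes were mostly small. With a minimum fold of 2 added, 8.11%, 39.2% and 20.3% of members passed in IRI, rhabdomyolysis and cisplatin, which is below the 30.3%, 64.7% and 45.8% of all genes.

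**Figure D1:**
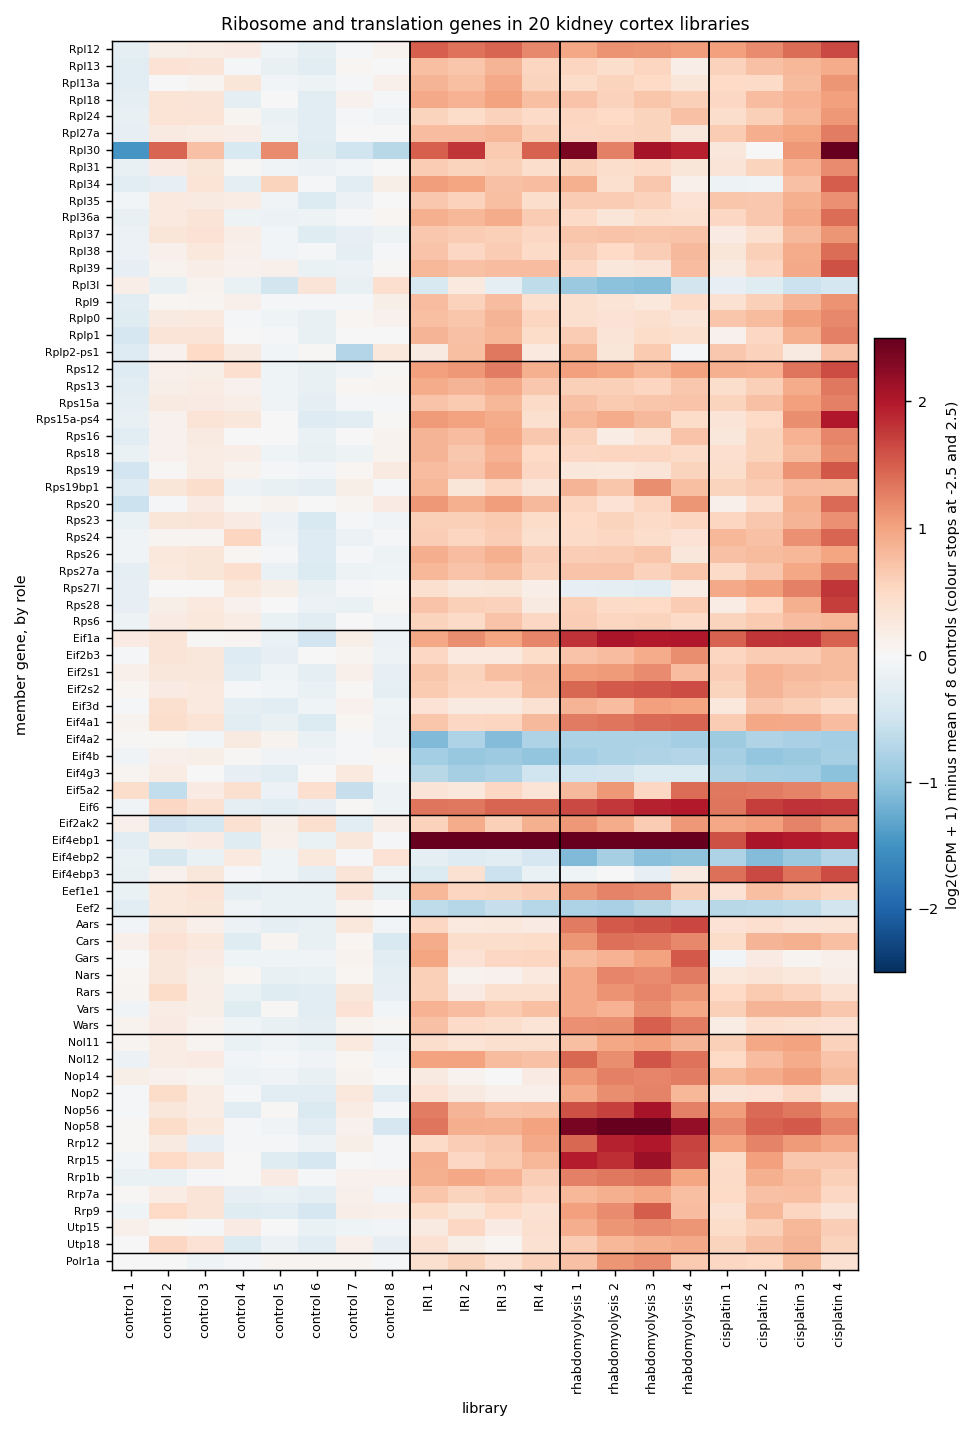
Heat map of 73 of the 74 members (rows, ordered by role) in the 20 libraries (columns, ordered by group). Colour gives log2(CPM + 1) minus the mean of the 8 controls and stops at -2.5 and 2.5. Most rows are red in all 12 injured libraries, Eef2, Eif4a2, Eif4b and Eif4g3 are blue in all 12, and the deepest red among nucleolar factors and tRNA synthetases lies in the rhabdomyolysis columns.

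The calls fell into few patterns. Of the 74 members, 51 were higher in all 3 injuries and 4 were lower in all 3 (Eef2, Eif4a2, Eif4b and Eif4g3, of which Eef2 changed direction under quantile normalization), where 35.3% of all genes were higher and 36.9% lower in all 3. A further 11 passed the threshold upward in rhabdomyolysis and cisplatin and not in IRI, namely Aars, Eif2b3, Eif3d, Eif5a2, Nars, Nop14, Nop2, Rars, Rplp2-ps1, Rrp9 and Utp18, a pattern that 9.06% of all genes had. This pattern depended on the setting. Of these 11, 7 (Aars, Eif2b3, Eif3d, Nars, Rars, Rplp2-ps1 and Rrp9) also passed in IRI both with 75th percentile scaling and against all 8 controls, and 4 (Aars, Eif3d, Nars and Rars) did so with quantile normalization. Under those 3 settings 60, 60 and 52 members were higher in all 3 injuries, against 38.9%, 38.5% and 28.5% of all genes, and with quantile normalization 0 members and 35.9% of all genes were lower in all 3. The other 8 were Gars and Rpl30 (higher in IRI and rhabdomyolysis), Rps19 (higher in IRI and cisplatin), Rpl34 (higher in IRI), Eif4ebp3 and Rps27l (higher in cisplatin), Eif4ebp2 (lower in rhabdomyolysis and cisplatin) and Rpl3l (lower in rhabdomyolysis). No member was called in opposite directions in different injuries. The 2 comparisons with controls 5 to 8 share those controls.

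**Figure D2:**
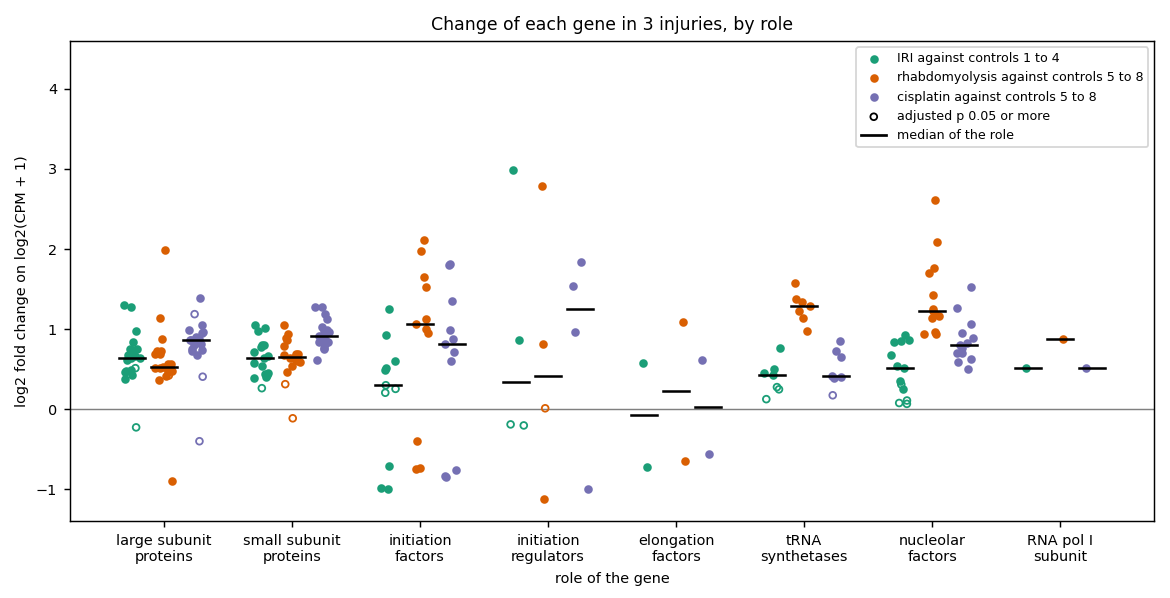
Log2 fold change of each member against its controls (y axis) by role (x axis), with a point per gene and injury, filled where the adjusted p was under 0.05. Black bars are role medians. The nucleolar factors, tRNA synthetases and initiation factors have their highest medians in rhabdomyolysis (1.22, 1.29 and 1.06), and the ribosomal proteins of each subunit have theirs in cisplatin (0.86 and 0.92).

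The nucleolar factors and Polr1a were highest in rhabdomyolysis. Of these 14 genes, 10 were higher after IRI, 14 after rhabdomyolysis and 14 after cisplatin, where 40.6%, 48.8% and 47.8% of all genes were higher, and none was lower. Their median log2 fold change was 0.51, 1.21 and 0.79. Their summed level was 298 ± 37.3 CPM in controls (SD, n = 8), 443 ± 27.6 after IRI, 758 ± 83.8 after rhabdomyolysis and 521 ± 54.8 after cisplatin (SD, 4 libraries each). The largest of the 3 effects was in rhabdomyolysis for 14 of 14. In the direct comparison of rhabdomyolysis with cisplatin, 11 of the 14 were higher in rhabdomyolysis and none lower, where 21.4% of all genes were higher and 32.7% lower.

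Nop58 showed the largest rise of the nucleolar factors after rhabdomyolysis and after cisplatin. It encodes a core protein of box C/D particles, which guide rRNA methylation, and lies on chromosome 1 (59684961 to 59711510, GRCm38.p6). Controls held 19.3 to 36.2 CPM (median 25.8). The injured libraries held 67.4, 50.1, 48.9 and 53.3 CPM in IRI, 139, 151, 178 and 123 CPM in rhabdomyolysis and 61, 74.6, 77.1 and 62.8 CPM in cisplatin. Each injured library lay above all controls, and the rhabdomyolysis libraries also lay above all cisplatin libraries. The log2 fold change was 0.86 after IRI, 2.61 after rhabdomyolysis and 1.53 after cisplatin (each SE 0.15, adjusted p = 1.73e-05, 3.25e-13 and 3.16e-09). Its partner in the same particle, Nop56, was at 15.7 to 25.2 CPM (median 20.6) in controls. Nop56 read 51.4, 38, 34.2 and 34.7 CPM in IRI, 64.2, 69.3, 88.6 and 50.5 CPM in rhabdomyolysis and 43.2, 56.6, 52.8 and 44.6 CPM in cisplatin. All injured libraries exceeded the controls, while rhabdomyolysis and cisplatin overlapped in range. The Nop56 change was 0.85 after IRI, 1.70 after rhabdomyolysis and 1.26 after cisplatin (each SE 0.17, adjusted p = 0.000128, 3.93e-09 and 5.97e-07).

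Rrp15, a factor of large subunit assembly, had the largest difference between rhabdomyolysis and cisplatin among the members that were higher in rhabdomyolysis. Its control range was 6.42 to 13.1 CPM (median 8.89). Injury gave 17.8, 13.3, 14.7 and 16.7 CPM in IRI, 38, 35, 43.2 and 30.3 CPM in rhabdomyolysis and 12.7, 19.3, 15 and 14.8 CPM in cisplatin. The rhabdomyolysis libraries stood apart from all others, and 1 cisplatin library fell within the control range. Fold changes on the log2 scale were 0.54 after IRI, 2.09 after rhabdomyolysis and 0.90 after cisplatin (each SE 0.16, adjusted p = 0.00409, 4.57e-11 and 2.22e-05), and rhabdomyolysis exceeded cisplatin by 1.197 (SE 0.16, adjusted p = 1.69e-06). Polr1a, the largest catalytic subunit of RNA polymerase I, spanned 18.1 to 20.8 CPM (median 19.6) in controls. It reached 26.1, 29.2, 25.9 and 29.6 CPM in IRI, 33.5, 43.4, 45.8 and 31.4 CPM in rhabdomyolysis and 28.6, 28.3, 35 and 25.9 CPM in cisplatin. Injured and control libraries did not overlap in any injury. For Polr1a the log2 fold changes were 0.51 after IRI, 0.88 after rhabdomyolysis and 0.51 after cisplatin (each SE 0.12, adjusted p = 0.000721, 6.05e-07 and 0.00055).

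Nop2, Utp18 and Nol11 had smaller effects in IRI than in rhabdomyolysis (differences of -1.12, -0.85 and -0.59, adjusted p = 9.08e-05, 0.00242 and 0.00809). Nop2 is an rRNA cytosine methyltransferase, and its controls spanned 20.4 to 34.6 CPM (median 24.6). Nop2 was measured at 32.5, 29.6, 27.4 and 27.6 CPM in IRI, 49.3, 57.4, 60.9 and 45.4 CPM in rhabdomyolysis and 31.8, 32.7, 36.2 and 29.3 CPM in cisplatin. IRI and cisplatin libraries overlapped the controls and rhabdomyolysis libraries did not. Its log2 fold change was 0.07 after IRI, 1.19 after rhabdomyolysis and 0.50 after cisplatin (each SE 0.14, adjusted p = 0.655, 5.05e-08 and 0.00217). Utp18, a subunit of the small subunit processome, ranged over 21.4 to 39.3 CPM (median 25.8) in controls. Its injured libraries gave 35.8, 30.5, 28.2 and 35.8 CPM in IRI, 43.2, 49.6, 51.7 and 53.5 CPM in rhabdomyolysis and 40.5, 46.1, 50 and 40.4 CPM in cisplatin. The IRI libraries lay within the control range, and the other injuries lay above it. The Utp18 estimates were 0.11 after IRI, 0.96 after rhabdomyolysis and 0.80 after cisplatin (each SE 0.15, adjusted p = 0.503, 3.63e-06 and 4.61e-05), and without control 4 the IRI value was -0.05. Nol11, another processome subunit that also acts in rRNA transcription, was at 19.8 to 26.6 CPM (median 22.3) in controls. It read 30.6, 28.5, 30 and 29.9 CPM in IRI, 38.6, 44.5, 46.5 and 41 CPM in rhabdomyolysis and 34.4, 45, 45.8 and 33.9 CPM in cisplatin. All injured libraries were above the controls. Nol11 changed by 0.35 after IRI, 0.94 after rhabdomyolysis and 0.83 after cisplatin (each SE 0.12, adjusted p = 0.0137, 2.92e-07 and 2.38e-06), and in IRI its adjusted p was 0.0506 without control 4.

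The other nucleolar factors were Nol12, Nop14, Rrp12, Rrp1b, Rrp7a, Rrp9 and Utp15. In rhabdomyolysis their log2 fold changes ran from 0.94 for Rrp7a to 1.77 for Rrp12. Nop14 had a control mean of 24.3 ± 2.09 CPM (SD, n = 8) and 26.6 ± 2.04, 57.5 ± 3.65 and 46.2 ± 3.95 CPM in IRI, rhabdomyolysis and cisplatin (SD, n = 4 each). Its IRI effect minus its rhabdomyolysis effect was -1.18 (SE 0.15, adjusted p = 1.53e-06) on the log2 scale.

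Promoter sequence is shown for Nop2, Nol11, Utp18 and Eef2, because they carry the same E-box in the bases just before the start. Nop2, Nol11 and Utp18 had the smallest mean change of the nucleolar factors, and Nop2 and Utp18 did not pass in IRI. Eef2 fell except under quantile normalization. An E-box of the form CACGTG is the class of site known to be bound by Myc and related factors. Both strands were searched, the motif reads the same on each, and the window ran from 250 bases before to 50 bases after the RefSeq start. The sequences below are the 100 bases before the annotated start, 5′ to 3′ on the gene's strand, from RefSeq on GRCm38.p6, with CACGTG in capitals.
Nop2 (chr6:125131783-125131882, plus strand): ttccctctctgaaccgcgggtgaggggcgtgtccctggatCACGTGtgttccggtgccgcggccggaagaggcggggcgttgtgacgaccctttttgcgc
Nol11 (chr11:107189382-107189481, minus strand): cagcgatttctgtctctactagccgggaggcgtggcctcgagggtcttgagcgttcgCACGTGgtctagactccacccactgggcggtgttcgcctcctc
Utp18 (chr11:93885767-93885866, minus strand): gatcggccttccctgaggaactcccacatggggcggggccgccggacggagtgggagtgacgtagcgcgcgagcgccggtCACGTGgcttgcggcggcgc
Eef2 (chr10:81176531-81176630, plus strand): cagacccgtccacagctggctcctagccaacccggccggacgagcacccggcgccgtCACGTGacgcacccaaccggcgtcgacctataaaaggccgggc
The first base of the motif lay at -60 in Nop2, -43 in Nol11, -20 in Utp18 and -43 in Eef2. Promoters were found for 56 of the 74 members, and 10 of these (17.9%) held CACGTG, against 7.24% of 27025 promoters and 9.65% of 4477 promoters of genes in the table. By role the motif was in 4 of 13 promoters of nucleolar factors and Polr1a (Nol11, Nop2, Rrp7a and Utp18), in 3 of 12 promoters of initiation and elongation factors and regulators (Eef2, Eif4a1 and Eif5a2), in 2 of 26 promoters of standard ribosomal proteins (Rpl13a and Rpl34) and in 1 of 2 promoters of synthetases (Aars). Nop58, Nop56 and Rrp15, the nucleolar factors with the largest mean change, were not among the members with the motif. A match describes letters only.

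Most ribosomal protein members were higher in each of the 3 injuries. Of 36 members with an Rpl, Rplp or Rps symbol, 33 were higher after IRI, 32 after rhabdomyolysis and 33 after cisplatin, where 40.6%, 48.8% and 47.8% of all genes were higher, and 1 (Rpl3l, in rhabdomyolysis) was lower. Their median log2 fold change was 0.64, 0.61 and 0.87. Without Rps19bp1, Rps27l, Rpl3l and both pseudogenes, which are no standard subunits and were set aside after their values were seen, 31 of 31 were higher after IRI, 29 after rhabdomyolysis and 29 after cisplatin. Their calls were read beside transcript length, since 29 of the 34 with a known length had a median transcript of at most 1000 bases. Other genes that short (873) had median log2 fold changes of -0.19, -0.55 and -0.20 and were higher in 38.1%, 43.8% and 45.7% of cases. Ribosomal protein genes have many near-identical pseudogenes (327 pseudogene symbols in RefSeq fit the rule), and how reads shared among copies were assigned is not given in the sources used here.

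**Figure D3:**
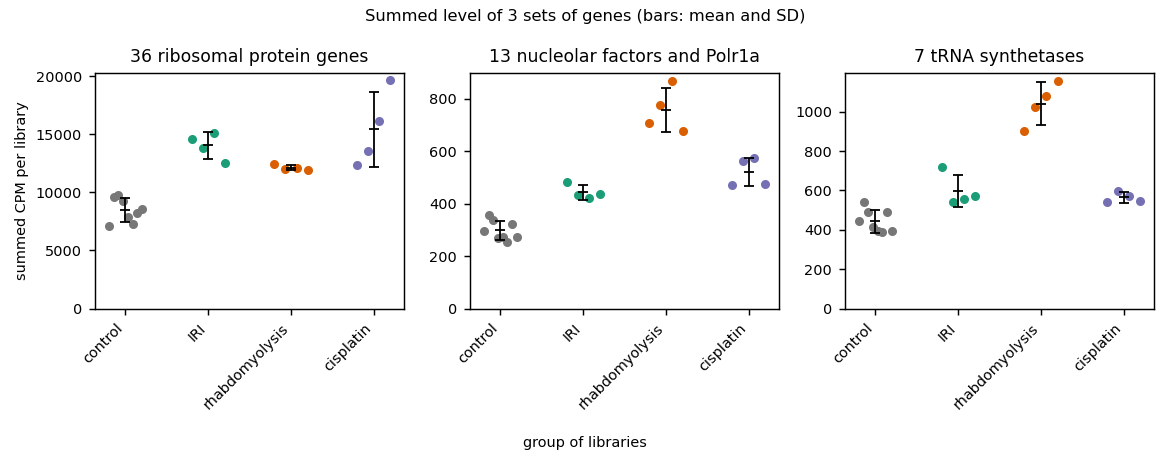
Summed CPM per library (y axes, from 0) of the 36 ribosomal protein genes, the 13 nucleolar factors with Polr1a and the 7 tRNA synthetases, by group (x axes). Points are libraries and bars are means with SD (control n = 8, injuries n = 4). The ribosomal proteins spread most in cisplatin (12329 to 19616 CPM), and the other sets are highest in rhabdomyolysis.

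The summed ribosomal protein level was 8450.2 ± 1021 CPM in controls (SD, n = 8), 14027 ± 1129.6 after IRI, 12122 ± 233 after rhabdomyolysis and 15419 ± 3220.3 after cisplatin (SD, 4 libraries each). The 4 cisplatin libraries held 12329, 13574, 16157 and 19616 CPM, the widest spread of the injured groups, with cisplatin 4 the highest.

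Of the 19 large subunit members, 17, 17 and 16 were higher in IRI, rhabdomyolysis and cisplatin, against the same shares of all genes. Rpl12 sits at the base of the ribosomal stalk, and controls held 214 to 289 CPM (median 256). Injured libraries held 716, 647, 689.8 and 583 CPM in IRI, 497, 552, 544 and 523 CPM in rhabdomyolysis and 517, 571, 666 and 797 CPM in cisplatin. No injured library overlapped the controls. Rpl12 rose by 1.30 after IRI, 1.14 after rhabdomyolysis and 1.39 after cisplatin (each SE 0.13, adjusted p = 9.97e-09, 2.51e-08 and 1.86e-09) on the log2 scale. Rpl18 belongs to the large subunit as well and was at 162 to 248 CPM (median 193) in controls. Rpl18 gave 378, 355, 392 and 331 CPM in IRI, 320.0, 291, 315 and 294 CPM in rhabdomyolysis and 278, 332, 357 and 399 CPM in cisplatin. Its injured libraries were all above the controls. The estimates for Rpl18 were 0.84 after IRI, 0.69 after rhabdomyolysis and 0.84 after cisplatin (each SE 0.14, adjusted p = 1.18e-05, 6.88e-05 and 7.72e-06). Rpl9, with one of the smaller rises, covered 323 to 436 CPM (median 399) in controls. It was at 674, 588, 673 and 524 CPM in IRI, 518, 503, 476 and 549 CPM in rhabdomyolysis and 517, 597, 712 and 859.5 CPM in cisplatin. Injured and control libraries again did not overlap. Rpl9 moved by 0.64 after IRI, 0.36 after rhabdomyolysis and 0.73 after cisplatin (each SE 0.13, adjusted p = 0.000211, 0.015 and 3.57e-05).

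Rpl30 varied widely between libraries. Its controls ran over 2.15 to 22.9 CPM (median 5.92). Its injured libraries ran over 23.6, 29.4, 12.9 and 23.5 CPM in IRI, 43.8, 20.1, 35.9 and 32.7 CPM in rhabdomyolysis and 9.69, 7.77, 17.7 and 72.2 CPM in cisplatin. Control and injured ranges overlapped in each injury, and cisplatin 4 stood far above the other cisplatin libraries. Estimates for Rpl30 were 1.27 after IRI, 1.99 after rhabdomyolysis and 1.19 after cisplatin (each SE 0.58, adjusted p = 0.0476, 0.00265 and 0.0559). The IRI call was lost without control 1 (0.75, adjusted p = 0.22) and with edgeR (1.00, adjusted p = 0.14), and the cisplatin value passed with edgeR (1.66, adjusted p = 0.019) but was 0.54 without cisplatin 4. Rplp0, the stalk protein P0, stood at 1074 ± 142 CPM in controls (SD, n = 8) and 1753 ± 154, 1383 ± 32.7 and 2055 ± 328 CPM in IRI, rhabdomyolysis and cisplatin (SD, n = 4 each).

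Of the 17 small subunit members, 16, 15 and 17 were higher in IRI, rhabdomyolysis and cisplatin, again against 40.6%, 48.8% and 47.8% of all genes. Rps12 ranged over 145 to 241 CPM (median 177) in controls. Injury gave 369, 386, 439.7 and 335 CPM in IRI, 369, 353, 321 and 364 CPM in rhabdomyolysis and 334, 331, 461 and 562 CPM in cisplatin. Controls and injured libraries did not overlap, with log2 fold changes of 0.98 after IRI, 1.05 after rhabdomyolysis and 1.27 after cisplatin (each SE 0.15, adjusted p = 7.94e-06, 1.41e-06 and 1.3e-07). Rps6, the ribosomal target of S6 kinase, was found at 440.1 to 636 CPM (median 520.2) in controls. Its injured libraries had 782, 745, 869 and 759 CPM in IRI, 817, 768, 781 and 746 CPM in rhabdomyolysis and 787, 843, 907 and 951 CPM in cisplatin. These were all above the controls, and Rps6 changed by 0.44 after IRI, 0.67 after rhabdomyolysis and 0.84 after cisplatin (each SE 0.11, adjusted p = 0.000865, 3.47e-06 and 2.51e-07).

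Rps28 and Rps19 were closer to the threshold. Rps28 had 69 to 94.3 CPM (median 81.2) in controls. It had 131, 122, 119 and 93.3 CPM in IRI, 121, 111, 113 and 124 CPM in rhabdomyolysis and 90.9, 114, 149 and 266 CPM in cisplatin. The IRI and cisplatin ranges overlapped the controls, and the estimates were 0.45 after IRI, 0.62 after rhabdomyolysis and 0.90 after cisplatin (each SE 0.21, adjusted p = 0.0475, 0.00729 and 0.000368). Leaving out any of several single libraries raised the adjusted p in IRI above the threshold (0.14 without control 1, 0.12 without IRI 1), and edgeR gave 0.0540. Rps19, which small subunit maturation needs, covered 108 to 175 CPM (median 153) in controls. Rps19 gave 258, 245, 289 and 214 CPM in IRI, 184, 179, 188 and 221 CPM in rhabdomyolysis and 204, 244, 329 and 445 CPM in cisplatin. Each injured library was above the controls. Rps19 changed by 0.77 after IRI, 0.31 after rhabdomyolysis and 0.92 after cisplatin (each SE 0.18, adjusted p = 0.000552, 0.0983 and 6.84e-05), so the rhabdomyolysis change did not pass, and it did with 75th percentile scaling (0.50, adjusted p = 0.012).

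Rps27l and Rpl3l carry a ribosomal symbol without being standard subunits and went other ways. Rps27l encodes a close relative of Rps27 that is a known p53 target. Its controls held 77.1 to 108 CPM (median 89.5). Injured libraries held 118, 108, 111 and 99.9 CPM in IRI, 77.9, 76.4, 73.4 and 101 CPM in rhabdomyolysis and 175, 186, 215 and 312 CPM in cisplatin. All cisplatin libraries and 3 of the 4 IRI libraries lay above the controls, and the cisplatin libraries lay above every other library. The log2 fold change was 0.26 after IRI, -0.11 after rhabdomyolysis and 1.28 after cisplatin (each SE 0.15, adjusted p = 0.108, 0.466 and 7.22e-08). Its rhabdomyolysis value turned positive with 75th percentile scaling (0.07) and with quantile normalization (0.13). Its IRI rise passed under both (0.39 and 0.47, adjusted p = 0.022 and 0.0081) and against all 8 controls (0.28, adjusted p = 0.043). Cisplatin exceeded rhabdomyolysis, with a difference of -1.39 (SE 0.15, adjusted p = 7.96e-08) for rhabdomyolysis minus cisplatin. Rpl3l, a relative of Rpl3 known from striated muscle, was scarce at 1.81 to 4.14 CPM (median 2.77) in controls. It read 1.97, 3.60, 2.30 and 1.49 CPM in IRI, 1.04, 0.887, 0.855 and 1.82 CPM in rhabdomyolysis and 2.33, 2.12, 1.68 and 1.84 CPM in cisplatin. The ranges overlapped the controls in each injury, and the change was -0.23 after IRI, -0.89 after rhabdomyolysis and -0.40 after cisplatin (each SE 0.21, adjusted p = 0.319, 0.000406 and 0.076). The cisplatin decrease of Rpl3l passed with quantile normalization (-0.77, adjusted p = 0.0017), against all 8 controls (-0.37, adjusted p = 0.0497) and without control 5 (-0.56, adjusted p = 0.018).

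The pseudogene members had few reads. Rps15a-ps4 was at 1.76 to 3.36 CPM (median 2.48) in controls. It was at 6.16, 5.86, 5.51 and 3.55 CPM in IRI, 5.10, 5.52, 5.04 and 3.75 CPM in rhabdomyolysis and 3.27, 3.84, 6.70 and 12.8 CPM in cisplatin. IRI and rhabdomyolysis libraries were above the controls and 1 cisplatin library was not, with log2 fold changes of 0.71 after IRI, 0.89 after rhabdomyolysis and 1.13 after cisplatin (each SE 0.26, adjusted p = 0.016, 0.00272 and 0.000381). Rplp2-ps1 held 0.267 to 1.94 CPM (median 1.19) in controls. It held 1.44, 2.53, 4.25 and 1.49 CPM in IRI, 2.74, 1.58, 2.28 and 1.02 CPM in rhabdomyolysis and 2.33, 2.12, 1.45 and 2.42 CPM in cisplatin. All ranges overlapped the controls, and the values were 0.51 after IRI, 0.56 after rhabdomyolysis and 0.67 after cisplatin (each SE 0.26, adjusted p = 0.0718, 0.0427 and 0.0181). The Rplp2-ps1 calls were lost with quantile normalization (0.25 in rhabdomyolysis and 0.28 in cisplatin, adjusted p = 0.34 and 0.30) and without control 7 (0.36 and 0.48, adjusted p = 0.18 and 0.090), and that in rhabdomyolysis also without control 5, rhabdomyolysis 1 or rhabdomyolysis 3 and against all 8 controls. The IRI call of Rps15a-ps4 was lost with quantile normalization (0.50, adjusted p = 0.097) and without control 1 (0.61, adjusted p = 0.053). Reads from the parent genes Rps15a and Rplp2 could have been counted on these copies, so both values are uncertain.

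Of the 11 initiation factors, 5 were higher and 3 lower in IRI, which is close to the 40.6% higher and 40.1% lower of all genes. The count of those higher was 7 with 75th percentile scaling, 7 against all 8 controls and 6 with quantile normalization. Of all genes, 43.7%, 42.7% and 35.5% were higher under these settings. In both rhabdomyolysis and cisplatin 8 were higher and 3 lower, where 48.8% and 47.8% of all genes were higher and 46.5% and 44% lower. Eif1a and Eif6 rose most. Eif1a, a factor of scanning and start codon choice, spanned 28.2 to 49.7 CPM (median 41.2) in controls. It reached 78.3, 89.6, 79.3 and 93.6 CPM in IRI, 141, 166, 159.5 and 161 CPM in rhabdomyolysis and 112, 139, 140.4 and 113 CPM in cisplatin. No injured library overlapped the controls, and rhabdomyolysis libraries were all above cisplatin libraries. Eif1a rose by 0.92 after IRI, 2.12 after rhabdomyolysis and 1.79 after cisplatin (each SE 0.12, adjusted p = 8.31e-07, 6.17e-13 and 1.48e-11). Eif6 holds the large subunit back from joining too early and takes part in its assembly, and its controls had 55.8 to 97.8 CPM (median 63.2). Its injured libraries had 173, 170.1, 188 and 189 CPM in IRI, 216, 234, 259 and 270.2 CPM in rhabdomyolysis and 174, 228, 239.6 and 237 CPM in cisplatin. All were above the controls. Eif6 rose by 1.25 after IRI, 1.97 after rhabdomyolysis and 1.81 after cisplatin (each SE 0.14, adjusted p = 1.03e-07, 2.19e-11 and 1.64e-10).

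The eIF4A helicases moved in opposite directions. Eif4a1 (chromosome 11, 69666936 to 69672423) encodes the helicase that unwinds mRNA leaders. Controls were at 244 to 418 CPM (median 302). Injury gave 501, 446, 451 and 545 CPM in IRI, 761, 781, 830.0 and 845 CPM in rhabdomyolysis and 484, 609.6, 602 and 529 CPM in cisplatin. All 12 injured libraries were above the controls, with log2 fold changes of 0.49 after IRI, 1.52 after rhabdomyolysis and 0.99 after cisplatin (each SE 0.13, adjusted p = 0.00177, 3.5e-10 and 4.77e-07). Eif4a2 (chromosome 16, 23107468 to 23114132) encodes a close relative, and controls were at 369.5 to 484 CPM (median 412). Eif4a2 fell to 191, 242, 193 and 242 CPM in IRI, 239, 239, 239 and 228 CPM in rhabdomyolysis and 222, 245, 235 and 229.5 CPM in cisplatin. All 12 injured libraries were below the controls, with log2 fold changes of -0.99 after IRI, -0.74 after rhabdomyolysis and -0.76 after cisplatin (each SE 0.10, adjusted p = 1.54e-08, 3.78e-07 and 3.91e-07). The ratio of Eif4a1 CPM to Eif4a2 CPM, uncorrected for length and read only for its change, was 0.766 ± 0.163 in controls (SD, n = 8). It was 2.26 ± 0.320 after IRI, 3.41 ± 0.237 after rhabdomyolysis and 2.38 ± 0.172 after cisplatin (SD, 4 libraries each). The control maximum of 0.992 lay below the injured minimum of 1.85. Quantile normalization kept the Eif4a2 change in rhabdomyolysis negative (-0.20), and it no longer passed the threshold (adjusted p = 0.11).

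Eif4b and Eif4g3 fell with Eif4a2. Eif4b stimulates the eIF4A helicase, and controls lay at 573 to 675 CPM (median 605). Its injured libraries lay at 339, 316, 325 and 307 CPM in IRI, 337, 353, 362 and 369 CPM in rhabdomyolysis and 345, 314, 320.4 and 344 CPM in cisplatin. No injured library overlapped the controls, and the change was -0.98 after IRI, -0.73 after rhabdomyolysis and -0.83 after cisplatin (each SE 0.09, adjusted p = 1.85e-09, 4.96e-08 and 1.13e-08). Eif4g3 encodes a scaffold that joins cap-bound eIF4E to eIF4A, with 121 to 173 CPM (median 144) in controls. It had 89.2, 81.2, 84.5 and 102 CPM in IRI, 102, 105, 114 and 115 CPM in rhabdomyolysis and 85.4, 81.7, 80.5 and 71 CPM in cisplatin. Injured libraries were all below the controls. Eif4g3 changed by -0.71 after IRI, -0.40 after rhabdomyolysis and -0.85 after cisplatin (each SE 0.11, adjusted p = 9.02e-06, 0.0022 and 4.74e-07), and it was lower in cisplatin than in rhabdomyolysis (rhabdomyolysis minus cisplatin, 0.45, SE 0.11, adjusted p = 0.00191). With quantile normalization the rhabdomyolysis decreases of Eif4b (-0.09, adjusted p = 0.32) and Eif4g3 (-0.02, adjusted p = 0.88) did not pass.

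Eif5a2, the second eIF5A gene, differed between cisplatin and IRI. Controls held 6.19 to 14 CPM (median 10.4). The injured libraries held 12.7, 12.3, 14.8 and 12.9 CPM in IRI, 18.3, 22.2, 14.7 and 28 CPM in rhabdomyolysis and 26.5, 26.1, 24.9 and 22.7 CPM in cisplatin. All rhabdomyolysis and cisplatin libraries lay above the controls, and 1 of the 4 IRI libraries did. Its log2 fold change was 0.25 after IRI, 1.06 after rhabdomyolysis and 1.35 after cisplatin (each SE 0.22, adjusted p = 0.278, 9.84e-05 and 6.61e-06). With single libraries left out, the IRI value of Eif5a2 ran from 0.01 (without control 2) to 0.37 (without control 1). The other 4 initiation factors that rose were Eif2s1 and Eif2s2 (subunits of eIF2, which brings the initiator tRNA), Eif2b3 (a subunit of the exchange factor of eIF2) and Eif3d (a subunit of eIF3). Eif2s2 stood at 140.1 ± 16.1 CPM in controls (SD, n = 8) and 216 ± 19, 408 ± 24.7 and 228 ± 19.9 CPM in IRI, rhabdomyolysis and cisplatin (SD, n = 4 each), with a rhabdomyolysis excess over cisplatin of 0.84 (SE 0.10, adjusted p = 3.63e-07) on the log2 scale.

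The eIF4E-binding proteins, which block cap-dependent initiation unless mTOR phosphorylates them, changed each in its own way. Eif4ebp1 (chromosome 8, 27260327 to 27275656) had the largest rise of all members in each injury. Controls held 8.63 to 13.6 CPM (median 11.3). Injury brought 103, 80.8, 93 and 85 CPM in IRI, 76.5, 80.5, 90.8 and 91.4 CPM in rhabdomyolysis and 34.9, 48, 46.5 and 45 CPM in cisplatin. No injured library overlapped the controls, and each IRI and rhabdomyolysis library was above all cisplatin libraries. The log2 fold change was 2.98 after IRI, 2.79 after rhabdomyolysis and 1.84 after cisplatin (each SE 0.14, adjusted p = 1.05e-13, 6.59e-14 and 8.84e-11), and the IRI effect exceeded the cisplatin effect by 1.15 (SE 0.20, adjusted p = 0.000154).

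**Figure D4:**
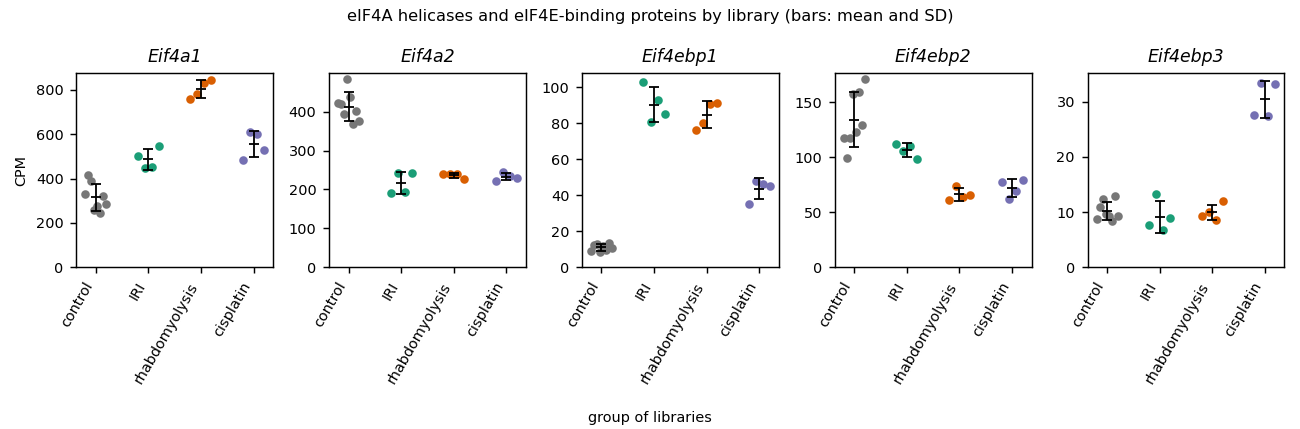
CPM (y axes, from 0) of the eIF4A helicase genes and the eIF4E-binding protein genes by group (x axes), with a point per library and bars for mean and SD (control n = 8, injuries n = 4). Eif4a1 and Eif4a2 go apart in each injury, Eif4ebp1 is above the controls in each injury, Eif4ebp2 is below them in rhabdomyolysis and cisplatin, and Eif4ebp3 is above them in cisplatin.

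Eif4ebp2 went down where it moved. Its controls spanned 99.5 to 171 CPM (median 126). Its injured libraries spanned 113, 106, 110.0 and 98.3 CPM in IRI, 61.2, 74.1, 63.8 and 65.6 CPM in rhabdomyolysis and 77.2, 62.2, 69.3 and 79.4 CPM in cisplatin. IRI overlapped the controls, and the others were below them. Eif4ebp2 changed by -0.19 after IRI, -1.11 after rhabdomyolysis and -0.997 after cisplatin (each SE 0.13, adjusted p = 0.183, 4.72e-08 and 3.87e-07), and quantile normalization turned the IRI value to 0.05, while against all 8 controls it was -0.31 and passed (adjusted p = 0.020). The IRI effect was above the rhabdomyolysis effect by 0.93 (SE 0.18, adjusted p = 0.000313). The ratio of Eif4ebp1 CPM to Eif4ebp2 CPM, again uncorrected for length, was 0.0861 ± 0.0259 in controls (SD, n = 8), 0.848 ± 0.0630 after IRI, 1.29 ± 0.155 after rhabdomyolysis and 0.616 ± 0.138 after cisplatin (SD, 4 libraries each).

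Eif4ebp3 rose in cisplatin. Control libraries had 8.34 to 12.8 CPM (median 9.45). Injured libraries had 7.74, 13.3, 6.66 and 8.92 CPM in IRI, 9.26, 9.95, 8.65 and 11.9 CPM in rhabdomyolysis and 27.7, 33.5, 27.4 and 33.2 CPM in cisplatin. Cisplatin libraries lay above every other library, and the others overlapped the controls. Log2 fold changes were -0.20 after IRI, 0.01 after rhabdomyolysis and 1.54 after cisplatin (each SE 0.17, adjusted p = 0.283, 0.945 and 4.7e-08). The rhabdomyolysis value is near 0 and its sign changed among alternatives. The IRI value was -0.38 and passed without IRI 2 (adjusted p = 0.040), and it was -0.08 without IRI 3. Cisplatin exceeded rhabdomyolysis (rhabdomyolysis minus cisplatin, -1.52, SE 0.17, adjusted p = 2e-07), and the IRI effect minus the cisplatin effect was -1.74 (SE 0.25, adjusted p = 1.56e-05). Eif2ak2, the kinase PKR that acts on eIF2 when double-stranded RNA is present, had 15.3 to 30 CPM (median 24.7) in controls. It had 34.1, 43.6, 34.3 and 42.6 CPM in IRI, 48.5, 43.6, 35.2 and 48.6 CPM in rhabdomyolysis and 44.6, 46.7, 54.3 and 47.8 CPM in cisplatin. All injured libraries exceeded the controls, and Eif2ak2 rose by 0.86 after IRI, 0.82 after rhabdomyolysis and 0.96 after cisplatin (each SE 0.18, adjusted p = 0.000161, 0.000168 and 3.32e-05).

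The elongation members were Eef2 and Eef1e1. Eef2 (chromosome 10, 81176631 to 81182509) moves the ribosome by a codon at each step, and its controls held 2309 to 3439 CPM (median 2691). It fell to 1773, 1682, 1861 and 1679 CPM in IRI, 1629.9, 1587, 1706 and 1914 CPM in rhabdomyolysis and 1707, 1726, 1791 and 2009 CPM in cisplatin. All 12 injured libraries were below the controls. The log2 fold change was -0.72 after IRI, -0.64 after rhabdomyolysis and -0.56 after cisplatin (each SE 0.13, adjusted p = 4.75e-05, 9.31e-05 and 0.000452), and with quantile normalization it was 0.08, 0.06 and 0.22, so its direction depends on that scaling. Eef1e1, despite its symbol, encodes a scaffold protein of the complex that holds several tRNA synthetases, and its controls spanned 16 to 24.4 CPM (median 17). Its injured libraries spanned 34.6, 28.1, 28.4 and 29.6 CPM in IRI, 41.9, 46.2, 45.4 and 30.3 CPM in rhabdomyolysis and 24.7, 33, 30.2 and 28.3 CPM in cisplatin. All were above the controls, and Eef1e1 rose by 0.58 after IRI, 1.09 after rhabdomyolysis and 0.62 after cisplatin (each SE 0.16, adjusted p = 0.00228, 1.26e-06 and 0.00107).

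The cytosolic tRNA synthetases were highest in rhabdomyolysis. Of 7, 4 were higher after IRI, 7 after rhabdomyolysis and 6 after cisplatin, where 40.6%, 48.8% and 47.8% of all genes were higher. The IRI count was not far from that share, but it depended on the setting. It was 7 of 7 with 75th percentile scaling and against all 8 controls, where 43.7% and 42.7% of all genes were higher. With quantile normalization it was 6 of 7, against 35.5% of all genes. The synthetases' medians were 0.42, 1.29 and 0.42. Their summed level was 444 ± 58.3 CPM in controls (SD, n = 8), 597 ± 82.6 after IRI, 1041 ± 108 after rhabdomyolysis and 564 ± 27.1 after cisplatin (SD, 4 libraries each). Every rhabdomyolysis library was above every cisplatin library for 7 of 7 synthetases, which held for 18.8% of all genes. By limma 6 of 7 were higher in rhabdomyolysis than in cisplatin, where 21.4% of all genes were higher. For 6 of 7 the effect of IRI was smaller than that of rhabdomyolysis, where 23.4% of all genes were lower.

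The promoters of Aars and Gars are shown because both hold the composite element of C/EBP and ATF factors, TGATGNAA, which ATF4 is known to bind in genes of amino acid supply. The stretches are 5′ to 3′ on the plus strand, from RefSeq on GRCm38.p6, with that element (here in its reverse form) and, in Aars, CACGTG in capitals. The Aars promoter in that table is counted from a start at base 111033842, which lies 6064 bases inside the annotated span of the gene, whereas the other promoters printed here begin from the gene's first base.
Aars (chr8:111033682-111033751, plus strand): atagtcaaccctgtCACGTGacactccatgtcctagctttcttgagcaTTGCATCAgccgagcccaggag
Gars (chr6:55037931-55038000, plus strand): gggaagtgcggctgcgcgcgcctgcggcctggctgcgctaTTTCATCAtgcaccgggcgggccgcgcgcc
In Aars the E-box began at -146 and the composite element at -112, with another match of the latter at 10 bases past the start, and in Gars the composite element began at -30. Of 27025 promoters, 4.06% held TGATGNAA on either strand, against 2.55% of the 4477 promoters of genes in the table and 4 of the 56 members with a promoter (Aars, Gars, Nol12 and Nop14). Of the 7 synthetases, 2 (Aars and Gars) had a promoter among those searched. The motifs do not overlap each other in these promoters.

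Aars, which charges alanine, showed the largest rise of the synthetases in rhabdomyolysis. The gene lies on chromosome 8 (111027778 to 111055569). Controls held 78.2 to 112 CPM (median 87.3). Injured libraries held 131, 108, 109.8 and 105 CPM in IRI, 225, 266, 277 and 291 CPM in rhabdomyolysis and 118, 123, 115 and 116 CPM in cisplatin. Rhabdomyolysis libraries were above all other libraries, and IRI overlapped the controls. Its log2 fold change was 0.25 after IRI, 1.57 after rhabdomyolysis and 0.42 after cisplatin (each SE 0.12, adjusted p = 0.0599, 4.47e-11 and 0.00255), with a rhabdomyolysis excess over cisplatin of 1.15 (SE 0.12, adjusted p = 4.74e-08). The IRI change of Aars passed with 75th percentile scaling (0.38, adjusted p = 0.0028). Nars, the asparagine enzyme, spanned 113 to 161 CPM (median 136) in controls. It read 199, 139.7, 143 and 157 CPM in IRI, 255, 310.1, 299 and 326 CPM in rhabdomyolysis and 159, 164, 159.6 and 149 CPM in cisplatin. Rhabdomyolysis libraries stood apart from the rest, while the other injuries overlapped the controls. Nars changed by 0.13 after IRI, 1.29 after rhabdomyolysis and 0.39 after cisplatin (each SE 0.11, adjusted p = 0.293, 3.71e-10 and 0.00278). The IRI change of Nars passed by limma with 75th percentile scaling (0.25, adjusted p = 0.029) and with quantile normalization (0.41, adjusted p = 0.0025). It also passed against all 8 controls (0.26, adjusted p = 0.029), and without IRI 1 it was 0.02. Rars charges arginine and was at 43 to 73.3 CPM (median 51.4) in controls. Rars gave 81, 61.9, 70.8 and 70.5 CPM in IRI, 103, 118, 126 and 116 CPM in rhabdomyolysis and 75.4, 84.4, 79.9 and 69.9 CPM in cisplatin. Again the rhabdomyolysis libraries were the highest, and the change was 0.28 after IRI, 1.23 after rhabdomyolysis and 0.65 after cisplatin (each SE 0.14, adjusted p = 0.0676, 2.19e-08 and 0.000145). The IRI change of Rars passed by limma with 75th percentile scaling (0.40, adjusted p = 0.0054) and with quantile normalization (0.41, adjusted p = 0.0051).

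Gars, the glycine enzyme, did not pass in cisplatin. Its controls had 65.6 to 96.7 CPM (median 76.1). Its injured libraries had 157, 101, 114 and 115 CPM in IRI, 138, 145, 159 and 231 CPM in rhabdomyolysis and 75.4, 91.2, 82.4 and 86.3 CPM in cisplatin. Cisplatin overlapped the controls, and IRI and rhabdomyolysis were above them. The log2 fold change was 0.50 after IRI, 1.14 after rhabdomyolysis and 0.17 after cisplatin (each SE 0.15, adjusted p = 0.00439, 2.75e-07 and 0.266), and rhabdomyolysis exceeded cisplatin by 0.97 (SE 0.15, adjusted p = 1.33e-05). Cars, for cysteine, ranged over 11.6 to 20 CPM (median 16) in controls. It ranged over 30.3, 21, 21.1 and 21.5 CPM in IRI, 34, 41.8, 40.6 and 36.8 CPM in rhabdomyolysis and 21.6, 28.5, 29.3 and 26.7 CPM in cisplatin. Injured libraries were above the controls, with IRI 1 above the other IRI libraries. Cars rose by 0.45 after IRI, 1.37 after rhabdomyolysis and 0.85 after cisplatin (each SE 0.16, adjusted p = 0.0117, 2.86e-08 and 2.98e-05), and without IRI 1 its IRI value was 0.33 (adjusted p = 0.063), and without control 4 it was 0.31 (adjusted p = 0.062). Vars, for valine, had 24.5 to 39.3 CPM (median 29.9) in controls. It had 56.1, 52.3, 48 and 51.4 CPM in IRI, 59.6, 55.9, 69 and 60.2 CPM in rhabdomyolysis and 46.1, 55.6, 55.5 and 48.9 CPM in cisplatin. All injured libraries exceeded the controls. Vars rose by 0.77 after IRI, 0.97 after rhabdomyolysis and 0.73 after cisplatin (each SE 0.13, adjusted p = 1.99e-05, 3.79e-07 and 2.45e-05), and although every rhabdomyolysis library lay above every cisplatin library, their difference did not pass the threshold (0.24, SE 0.13, adjusted p = 0.123). Wars, for tryptophan, stood at 39.1 ± 4.14 CPM in controls (SD, n = 8) and 55.5 ± 6.70, 95.8 ± 10.9 and 49.4 ± 3.41 CPM in IRI, rhabdomyolysis and cisplatin (SD, n = 4 each).

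Against each other, rhabdomyolysis and cisplatin differed for 35 of 74 members by limma, 24 higher and 11 lower in rhabdomyolysis, where 54.1% of all genes differed. The split between directions depended on scaling, with 29 higher and 7 lower under 75th percentile scaling and 30 higher and 6 lower under quantile normalization. The split of all genes moved with it, from 21.4% higher and 32.7% lower to 26% and 28.6% under 75th percentile scaling and to 29.8% and 27.9% under quantile normalization. The 24 higher members were all outside the ribosomal proteins, and 11 of them were nucleolar factors or Polr1a, 6 synthetases and 5 initiation factors. Of 36 ribosomal proteins, 10 were lower in rhabdomyolysis and none higher, with a median difference of -0.25. Other short genes had a median of -0.26 and were lower in 43.2% of cases, and 32.7% of all genes were lower, so the ribosomal proteins' share was not above either background. Without cisplatin 1, 3 or 4 the count of ribosomal proteins lower in rhabdomyolysis was 18, 6 and 5. Of all genes, 1717 of 5657, 1781 of 5658 and 1678 of 5665 were then lower. Without cisplatin 1 the share of the 36 was thus above that of all genes. After Rps27l, the ribosomal protein symbols with the largest differences among those 10 were Rps19 (-0.60, SE 0.18, adjusted p = 0.00721) and Rps24 (-0.60, SE 0.14, adjusted p = 0.00137).

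**Figure D5:**
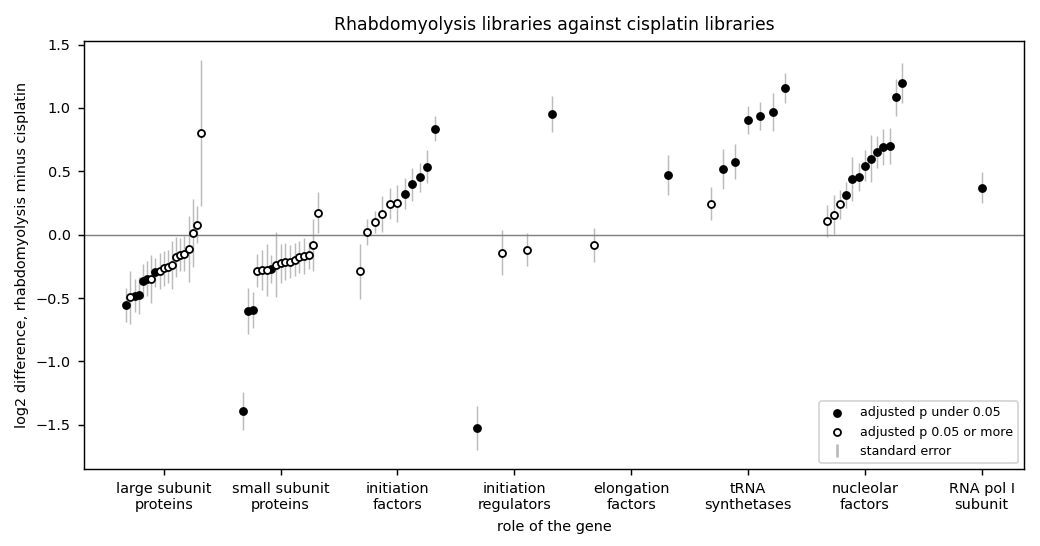
Log2 difference between rhabdomyolysis and cisplatin libraries (y axis, rhabdomyolysis minus cisplatin) for each member by role (x axis), in ascending order within a role. Lines are standard errors, and filled points had an adjusted p under 0.05. All tRNA synthetases and nucleolar factors lie above 0, while most ribosomal proteins lie below it. Eif4ebp3 and Rps27l are the lowest points.

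The IRI effect differed from the rhabdomyolysis effect for 27 members, 1 above (Eif4ebp2) and 26 below, where 28.6% and 23.4% of all genes were above and below. The 26 were 12 nucleolar factors, 8 initiation factors and 6 synthetases, and 0 of 36 ribosomal proteins differed, 3 of them with an unadjusted p under 0.05. These counts depended on the use of matched controls. With all 8 controls as 1 group the controls cancel, and IRI and rhabdomyolysis libraries are compared directly, across the 2 identifier ranges. In that direct comparison 9 members were above and 30 below (35.6% and 32.6% of all genes). Among them were 14 of 14 nucleolar factors with Polr1a and 9 initiation factors below, and 8 ribosomal proteins above. Between controls 5 to 8 and controls 1 to 4 the members' median log2 difference was -0.15, with 11 of 74 positive, and the median of all genes was near 0. The largest differences were those of Nop58 (-1.75, SE 0.21, adjusted p = 7.82e-07), Rrp15 (-1.55, SE 0.23, adjusted p = 1e-05) and Aars (-1.32, SE 0.17, adjusted p = 2.12e-06). The IRI effect differed from the cisplatin effect for 18 members, 2 above (Eif4ebp1 and Eif4ebp2) and 16 below. Of all genes, 13.5% and 16.8% were above and below. When IRI and cisplatin libraries were compared directly, without matched controls, 3 members were above and 10 below (21.1% and 25.4% of all genes).

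Genes of the same pathways outside the symbol rule were read from lists written with the pathway's known factors. Of 84 listed rRNA processing and assembly factors, 43 were in the table, and 27, 43 and 42 of them were higher in IRI, rhabdomyolysis and cisplatin, with none lower, where 40.6%, 48.8% and 47.8% of all genes were higher. Their median log2 fold change was 0.39, 1.22 and 0.77, and 34 of 43 were higher and 1 lower in rhabdomyolysis than in cisplatin, where 21.4% of all genes were higher and 32.7% lower. The IRI count was 37 with 75th percentile scaling and 25 with quantile normalization, with none lower, where 43.7% and 35.5% of all genes were higher. Of 12 listed factors of RNA polymerase I transcription, 5 were in the table and 4, 5 and 4 were higher, against the same shares of all genes. The other translation factors in the table (5 of 31) were all higher in each injury, with 4 of 5 in IRI under quantile normalization, and the poly(A)-binding protein gene Pabpc1 changed by 0.83, 0.79 and 0.95.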

How the data were processed

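Poly-A RNA of renal cortex was sequenced from stranded libraries as 150-bp pairs, per the labels' protocols. The authors deposited 1 table of CPM values for 20 libraries. Bowtie2 2.1.0, RSEM 1.2.15, FastQC, edgeR and the builds GRCm38 and mm10 are named, per the submitters' processing notes, and how reads shared among copies were assigned is not given in the sources used here. CPM corrects for depth and not for gene length, so levels were not compared between genes.

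Values were tested as log2(CPM + 1) with limma 3.58.1 (R 4.3.3) over the 5672 genes that averaged 1 CPM or more, in a model with 5 groups (controls 1 to 4, controls 5 to 8 and the 3 injuries), a mean-variance trend and Benjamini-Hochberg adjustment at 0.05. The CPM steps gave whole reads for 100% of values, within 5.07e-05 of a whole number, and on these reads edgeR 4.0.16 called 4545, 5397 and 5186 genes in IRI, rhabdomyolysis and cisplatin and DESeq2 1.42.0 called 4535, 5380 and 5157. The scripts were tested on simulated data. All 20 libraries were fitted together, so each gene had 1 estimate of spread for all groups. The SEs and p-values rest on this shared spread and not on the 4 libraries of an injury alone. The groups' own spreads differed, as in the summed ribosomal protein level (SD 233 CPM in rhabdomyolysis and 3220.3 CPM in cisplatin).

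Members and lists were chosen with earlier results of these data known. Members given in full were, per role, the 3 with the largest and the 3 with the smallest mean change, any called in opposite directions, and the 3 largest called differences each way between injuries. The values of 1 of these members are not reported here. The alternatives tried were 0.1 as pseudocount, no minimum mean or 5 CPM, 75th percentile scaling, quantile normalization, no trend, all 8 controls, a minimum fold of 2, the replicate block, both count tests and leaving out each library. The roles' counts under these were added after seeing the data.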

Additional observations from a re-analysis of the deposited data

Results flagged for a closer look

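In some groups 1 library stood far from the rest, where its distance from the next library, divided by the spread from lowest to highest, exceeded Dixon's critical value. This quotient was 0.950 for Cars in IRI 1 (30.3 CPM against 21.0 to 21.5 in the others), 0.973 for Eif4a2 in rhabdomyolysis 4 (228 against 239 CPM) and 0.847 for Rpl30 in cisplatin 4 (72.2 against 7.77 to 17.7 CPM). It was 0.604 for Rps20 in control 1 (81.7 against 114 to 136 CPM), 0.625 for Rps24 in control 4 (643 against 354 to 463 CPM), 0.868 for Rps27a in rhabdomyolysis 3 (435 against 472 to 478 CPM) and 0.840 for Rps27l in rhabdomyolysis 4 (101 against 73.4 to 77.9 CPM). These were 7 of 296 groups examined, where chance at 1 in 20 would give 14.8.

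Effects that differed between injuries by limma numbered 35 members for rhabdomyolysis against cisplatin, 27 for the IRI effect minus the rhabdomyolysis effect and 18 for the IRI effect minus the cisplatin effect, of 74, where 54.1%, 52% and 30.3% of all genes differed. Between rhabdomyolysis and cisplatin the log2 difference was 1.197 for Rrp15, 1.15 for Aars, 1.08 for Nop58, -1.52 for Eif4ebp3, -1.39 for Rps27l and -0.60 for Rps19. The IRI effect minus the rhabdomyolysis effect was 0.93 for Eif4ebp2, -1.75 for Nop58, -1.55 for Rrp15 and -1.32 for Aars. The IRI effect minus the cisplatin effect was 1.15 for Eif4ebp1, 0.81 for Eif4ebp2, -1.74 for Eif4ebp3, -1.09 for Eif5a2 and -1.02 for Rps27l.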

How the results depend on the processing

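Among alternative values of the members chosen to be given in full, 3757 kept their direction and their side of the threshold. A further 43 newly passed it, 49 no longer passed and 15 changed sign. The other members were not part of this tally. The sign changes were Eef2 with quantile normalization (0.0763 for IRI, 0.0570 for rhabdomyolysis, 0.222 for cisplatin), Eif4ebp2 in IRI with quantile normalization (0.0522), Rps27l in rhabdomyolysis with 75th percentile scaling (0.0717) and quantile normalization (0.13), Utp18 in IRI without control 4 (-0.0458, while the values with another library left out stayed positive, up to 0.236 without control 2), and Eif4ebp3 in rhabdomyolysis with quantile normalization (-0.10), all 8 controls (-0.0247), edgeR (-0.00291), DESeq2 (-0.00424) and 4 left-out libraries (-0.0703 to -0.0119). The cause was not tested.

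A minimum fold of 2 left 6 members in IRI, 29 in rhabdomyolysis, 15 in cisplatin, 5 in rhabdomyolysis against cisplatin, 10 in the IRI minus rhabdomyolysis effect and 4 in the IRI minus cisplatin effect (8.11%, 39.2%, 20.3%, 6.76%, 13.5% and 5.41% of members, against 30.3%, 64.7%, 45.8%, 16.1%, 22.6% and 14.2% of all genes). By role it left, in IRI, rhabdomyolysis and cisplatin, 4, 3 and 7 ribosomal proteins, 0, 10 and 3 nucleolar factors with Polr1a, 0, 6 and 0 synthetases and 1, 7 and 3 initiation factors higher, where 15%, 30.8% and 24.3% of all genes were higher. Between rhabdomyolysis and cisplatin it left 1 ribosomal protein lower, 2 nucleolar factors higher and 1 synthetase higher, where 5.01% of all genes were higher and 11.1% lower. Fewer genes can pass by construction.

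The 10 ribosomal proteins lower in rhabdomyolysis than in cisplatin became 6 with 75th percentile scaling and 5 with quantile normalization. With the replicate block they were 6, and the block gave 57 members in IRI and 31 in rhabdomyolysis against cisplatin. Same-numbered libraries correlated at -0.112 to 0.176 for IRI with controls and at -0.207 to 0.325 for rhabdomyolysis with cisplatin. In each, 1 of 4 correlated best with its own number. With 4 libraries on each side, this cannot settle whether same-numbered libraries shared more than a number. No paired analysis was possible for the other comparisons because each includes controls 5 to 8, whose numbers no injured library has, so a fit with the block cannot estimate it.

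Leaving out each library in turn gave 52 to 62 members in IRI, 68 to 71 in rhabdomyolysis, 69 to 72 in cisplatin, 27 to 39 between rhabdomyolysis and cisplatin, 25 to 30 and 12 to 25 for the IRI effect minus the rhabdomyolysis and cisplatin effects, and 5 to 18 for the ribosomal proteins lower in rhabdomyolysis (5 without cisplatin 4, 18 without cisplatin 1). Quantile normalization moved the median of all genes from 0.31 to 0.11 in rhabdomyolysis and from 0.30 to 0.03 in cisplatin, and 75th percentile scaling moved it from 0.08 to 0.19 in IRI and from 0.31 to 0.44 in rhabdomyolysis. The fewest reads per control library were those of Rplp2-ps1 (2 to 15), Rps15a-ps4 (11 to 26) and Rpl3l (11 to 30).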

Other observations

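The mitochondrial tRNA synthetases, which charge tRNAs inside mitochondria and lie outside the symbol rule, were lower where the cytosolic enzymes were higher. Of 17 listed, 7 were in the table, and 7 of these were lower in IRI, 6 in rhabdomyolysis and 6 in cisplatin, with none higher, where 40.1%, 46.5% and 44% of all genes were lower. Their median log2 fold change was -0.58, -0.97 and -0.89. Lars2, the leucine enzyme, was the one that did not pass in rhabdomyolysis or cisplatin. These counts were the same with 75th percentile scaling and with quantile normalization. Proximal tubule markers fell in the same libraries, and their part in this was not tested.

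Of 24 listed upstream regulators of translation, 14 were in the table, and 6, 8 and 9 were higher and 5 lower in each of IRI, rhabdomyolysis and cisplatin. Of all genes tested, 40.6%, 48.8% and 47.8% were higher and 40.1%, 46.5% and 44% lower, so the regulators' counts in IRI were near the background. The 4 genes given here were chosen after their values were seen. Myc, a transcription factor known to drive ribosome genes in growing cells, rose by 2.57, 4.03 and 3.37 on the log2 scale. Atf4, which is translated when eIF2 is phosphorylated, rose by 0.77, 2.53 and 0.86. Its rhabdomyolysis level exceeded its cisplatin level by 1.67 (SE 0.15, limma adjusted p = 4.67e-09). Mtor, the kinase that phosphorylates eIF4E-binding proteins, fell by 0.67, 1.73 and 0.65. Maf1, the repressor of RNA polymerase III, fell by 0.52, 0.98 and 0.90. None of these 4 genes changed sign against controls under either scaling.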
